A study of Mus musculus with 8 samples.

Results

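The major histocompatibility complex (MHC) class I antigen presentation genes of mouse cardiac fibroblasts are described here through 8 genes chosen by their symbols, out of 18957 genes listed in the count data. They are the heavy chains *H2-K1*, *H2-D1* and *H2-T23*, the light chain *B2m*, the peptide transporter subunits *Tap1* and *Tap2*, the loading factor *Tapbp* and the transcriptional regulator *Nlrc5*. All 8 were found in every library, and all 8 passed the filter on low counts.

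MHC class I molecules display peptides of cytosolic proteins on the cell surface, where CD8 T cells and natural killer cells read them. A heavy chain pairs with beta-2 microglobulin in the endoplasmic reticulum, receives a peptide that the TAP transporter has pumped in from the cytosol, and leaves for the surface once tapasin and its partners have completed loading. Nearly all nucleated cells, fibroblasts included, make these molecules, and interferon-gamma raises the transcription of most genes of the pathway, in part through NLRC5.

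RNA was sequenced from PDGFRA+, lineage-negative cells sorted from mouse ventricles, with 4 libraries of WT and 4 of *Pdgfra-Cre:LmnaF/F* mice. The mice were 3 to 4 weeks old and of the strain labelled C57BL/6 (mixed), and the sex of each library's mouse was not given in the sources used here. In the *Pdgfra-Cre:LmnaF/F* mice a Cre recombinase, carried on a bacterial artificial chromosome and driven by *Pdgfra*, deleted a floxed exon of both alleles of *Lmna*, the gene of lamin A/C. The WT mice were littermates with wild-type alleles alone, so that an effect of Cre cannot be told apart from an effect of the *Lmna* deletion. The transgene is not exclusive to cardiac fibroblasts and, as the study describes, its locus is active in some cardiac myocytes while the heart develops, so that *Lmna* was also deleted in part of the myocytes. The p-values given below set the difference between the genotypes against the spread between these libraries.

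Total counts lay between 2080555 (WT replicate 2) and 12502949 (*Pdgfra-Cre:LmnaF/F* replicate 4). *Lmna* was 331, 274, 483 and 374 CPM (counts scaled to library size) in the WT libraries and 126, 97.4, 130 and 90.4 CPM in the *Pdgfra-Cre:LmnaF/F* libraries. The fibroblast label held: 8 of 8 fibroblast markers were detected, and their summed level was 48869 to 56433 CPM in WT and 42217 to 58684 CPM in *Pdgfra-Cre:LmnaF/F* libraries. The 10 leukocyte markers summed to 38.8 to 163 CPM in WT and 44.1 to 403 CPM in *Pdgfra-Cre:LmnaF/F* libraries, the highest in *Pdgfra-Cre:LmnaF/F* replicate 4. In that library the cardiac myocyte markers also summed to 5501 CPM, against 306 to 968 CPM in the other 7. In such bulk samples, fewer cells of a type and less RNA per cell cannot be told apart.

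Of the 8 genes, 0 differed between the genotypes in the edgeR quasi-likelihood test at an adjusted p under 0.05, which 53 of 13036 tested genes passed (0.407%; 0.169% higher and 0.238% lower in *Pdgfra-Cre:LmnaF/F* libraries). *B2m* and *Tapbp* were the only 2 with an unadjusted p under 0.05, and both were lower in *Pdgfra-Cre:LmnaF/F* libraries; 11.9% of all tested genes had such a p, 5.65% with a lower and 6.24% with a higher level. DESeq2 called 0 of the 8 as well, with 310 of the 14014 genes it tested called (2.21%), and so did limma-voom, with 126 genes called (0.967%). The 8 genes were also not called without the low-count filter (274 genes in all, 1.45%), with 1 factor of unwanted variation in edgeR (79 genes, 0.606%) or with that factor in DESeq2 (472 genes, 2.49%). The fold change was above 0 for 3 genes and below 0 for 5, with a median of -0.10 on the log2 scale, against a median of 0.02 over all tested genes, of which 48.2% lay below 0. The heavy chains had fold changes on both sides of 0, and those of the light chain, the transporter subunits and *Tapbp* were below 0, with *Tap1* at -0.01.

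Promoters of class I heavy chain genes are known for a shared arrangement of sequence boxes, the SXY module. The regulatory factor X complex, CREB-type factors and nuclear factor Y bind to it, and NLRC5 acts on it. Its downstream part was searched for as TGACG, the first bases of a cyclic AMP response element, followed by 20 bases and ATTGG, the reverse complement of CCAAT. The search covered both strands of the 250 bases before each start site in the RefSeq promoter table of GRCm38.p6, in which 5 of the 8 genes were searched: *H2-K1*, *H2-D1*, *H2-T23*, *Tap1* and *Tapbp*. The motif with this exact spacing lay before *H2-K1* and *H2-D1*, and before *H2-M3*, a class I gene outside the 8. It did not lie before *H2-T23*, *Tap1* or *Tapbp*. It was found in 29 of 32850 promoters (0.0883%). A match of letters is a description of the window and not a binding site. The stretches are shown 5′ to 3′, with the 2 boxes in capitals, because they are the arrangement that these class I genes share:
H2-K1 (chr17:34000359-34000388, minus strand): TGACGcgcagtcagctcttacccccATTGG
H2-D1 (chr17:35262993-35263022, plus strand): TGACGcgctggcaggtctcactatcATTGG
H2-M3 (chr17:37270188-37270217, plus strand): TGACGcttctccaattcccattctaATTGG

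In *H2-K1* the stretch ran from 41 to 12 bases before the start site of the gene. In *H2-D1* it lay 101 to 72 bases before the RefSeq start site, inside an untranslated exon of a GENCODE transcript that begins further upstream. The 20 bases between the boxes differed among the 3 genes, whereas both boxes and their spacing were fixed by the search. Upstream of the spaced boxes, the *H2-K1* promoter also held a kappa B-type motif, searched for as GGGA, any 4 bases and CC. It was present in 17.6% of all promoters and here matched on both strands in overlapping positions. The *H2-D1* promoter held 2 matches as well, and those of *H2-T23*, *Tap1* and *Tapbp* held none. The wider window of *H2-K1* is given with the fixed letters of both motifs, on either strand, in capitals, to show the order of the elements before a classical heavy chain gene:
H2-K1 (chr17:34000349-34000468, minus strand): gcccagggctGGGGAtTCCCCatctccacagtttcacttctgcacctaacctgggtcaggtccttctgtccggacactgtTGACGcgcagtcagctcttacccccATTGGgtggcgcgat

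The exact pattern GAAA, any 2 bases and GAAA, an interferon-type element, lay before *H2-T23* alone among the 5 genes searched. It lay before 2.97% of all promoters. Interferon elements of other spelling were not searched for, so the remaining genes may hold them. The promoter windows of *Tap1* and *Psmb9* shared 275 of their 300 bases, since the 2 genes are transcribed away from a common start region. Between the genotypes, the 2 heavy chain genes with the spaced motif among the 8 had log2 fold changes of -0.20 (*H2-K1*) and 0.08 (*H2-D1*), described one by one below, and neither was called.

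*H2-K1* (chr17:33996017-34000347, GRCm38) and *H2-D1* (chr17:35262730-35267499) encode the classical heavy chains that present peptides to CD8 T cells. *H2-K1* was 228, 349, 402 and 234 CPM in WT and 289, 274, 164 and 327 CPM in *Pdgfra-Cre:LmnaF/F* libraries. The groups overlapped, with the highest value in WT replicate 3 and the lowest in *Pdgfra-Cre:LmnaF/F* replicate 3. The log2 fold change, *Pdgfra-Cre:LmnaF/F* against WT, was -0.20 (SE 0.25, 95% interval -0.74 to 0.34, edgeR adjusted p = 0.836). It was -0.03 without *Pdgfra-Cre:LmnaF/F* replicate 3 and -0.04 without WT replicate 3. *H2-D1* was 288, 655, 744 and 360 CPM in WT and 377, 541, 524 and 712 CPM in *Pdgfra-Cre:LmnaF/F* libraries. The WT libraries alone spread from the lowest to the highest value of all 8, so the groups overlapped fully. Its log2 fold change was 0.08 (SE 0.30, 95% interval -0.56 to 0.71, edgeR adjusted p = 0.957), and the sign turned when WT replicate 1 (-0.12), WT replicate 4 (-0.06) or *Pdgfra-Cre:LmnaF/F* replicate 4 (-0.09) was left out.

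*H2-T23* (chr17:36029773-36032855) encodes the heavy chain of Qa-1, a nonclassical class I molecule that shows leader peptides of other class I chains to natural killer cell receptors. It was 42.0, 59.9, 111 and 62.3 CPM in WT and 90.6, 148, 42.0 and 153 CPM in *Pdgfra-Cre:LmnaF/F* libraries. In the latter group replicate 3 lay at the lowest WT value, whereas replicates 2 and 4 lay above every WT library. The log2 fold change of 0.66 was the highest of the 8 genes (SE 0.37, 95% interval -0.13 to 1.44, edgeR adjusted p = 0.525). When single libraries were left out it ranged from 0.44 to 0.98, with 0.93 without *Pdgfra-Cre:LmnaF/F* replicate 3 (edgeR adjusted p = 0.330) and 0.44 without replicate 4 (edgeR adjusted p = 0.740). Per kb of exon, the ratio of *H2-T23* to *H2-K1* was 0.187, 0.175, 0.280 and 0.271 in WT and 0.319, 0.550, 0.260 and 0.474 in *Pdgfra-Cre:LmnaF/F* libraries, with replicate 3 again within the WT range.

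The heavy chain genes resemble one another, and reads from stretches they share cannot be assigned with certainty. Among windows of 100 bases in their annotated transcripts, 0.957% for *H2-K1*, 3.59% for *H2-D1* and 3.15% for *H2-T23* occurred unchanged in a transcript of another gene, most of them class I genes. The share was 0 for *B2m*, *Tap1*, *Tap2* and *Nlrc5* and 0.0775% for *Tapbp*. How reads with more than 1 possible source entered the counts was not tested.

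*B2m* (chr2:122147686-122153083) encodes beta-2 microglobulin, the light chain without which most class I heavy chains do not reach the surface. It was 795, 752, 911 and 753 CPM in WT and 624, 713, 358 and 511 CPM in *Pdgfra-Cre:LmnaF/F* libraries. It was the only 1 of the 8 genes whose groups did not overlap, every *Pdgfra-Cre:LmnaF/F* library lying below every WT library; 3.97% of all tested genes showed that pattern, and 8.03% did not overlap in either direction. The means were 803 ± 75.1 and 551 ± 153 CPM (SD, n = 4 each), and the spread was larger in the *Pdgfra-Cre:LmnaF/F* group. Between the genotypes this was a log2 fold change of -0.54 (SE 0.22, 95% interval -1.02 to -0.06, edgeR adjusted p = 0.360). Over the alternatives, the adjusted p lay between 0.105 and 0.602, and without *Pdgfra-Cre:LmnaF/F* replicate 3, the lowest library, the log2 fold change was -0.38.

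Because each class I molecule holds 1 heavy and 1 light chain, the level of *B2m* was also set against the sum of *H2-K1* and *H2-D1*, each per kb of exon. This ratio was 4.89, 2.35, 2.49 and 3.996 in WT and 2.97, 2.74, 1.61 and 1.54 in *Pdgfra-Cre:LmnaF/F* libraries. By this measure *B2m* lay above the 2 heavy chains together in all 8 libraries, and the groups overlapped. The ratio rests on the merged length of all annotated exons, 860 bases for *B2m*, 2938 for *H2-K1* and 2579 for *H2-D1*. Shorter heavy chain transcripts would lower it, and transcript lengths were not measured. The gene *Patl2*, on the opposite strand, covers the whole of *B2m* in the annotation and was at 4.14 CPM or less in every library.

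*Tap1* (chr17:34187553-34197225) and *Tap2* (chr17:34203527-34216321) encode the subunits of the transporter that moves peptides into the endoplasmic reticulum. *Tap1* was 33.3, 36.2, 55.1 and 33.4 CPM in WT and 42.0, 53.5, 20.3 and 41.5 CPM in *Pdgfra-Cre:LmnaF/F* libraries. The *Pdgfra-Cre:LmnaF/F* libraries held values on both sides of most WT libraries, and the log2 fold change was -0.01 (SE 0.30, 95% interval -0.66 to 0.64, edgeR adjusted p = 0.997). It became 0.20 without WT replicate 3 and 0.21 without *Pdgfra-Cre:LmnaF/F* replicate 3. *Tap2* was 25.1, 28.7, 54.6 and 32.0 CPM in WT and 31.0, 31.3, 24.4 and 30.8 CPM in *Pdgfra-Cre:LmnaF/F* libraries. WT replicate 3 stood above all other libraries and *Pdgfra-Cre:LmnaF/F* replicate 3 below them. The log2 fold change was -0.26 (SE 0.29, 95% interval -0.87 to 0.35, edgeR adjusted p = 0.809) and became 0.03 without WT replicate 3. The 2 subunits form a heterodimer, and per kb of exon the ratio of *Tap1* to *Tap2* was 0.697 to 0.914 in WT and 0.573 to 1.18 in *Pdgfra-Cre:LmnaF/F* libraries.

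*Tapbp* (chr17:33915899-33929292) encodes tapasin, which bridges the transporter and the empty class I molecule and favours the exchange of weakly bound peptides. It was 243, 331, 221 and 230 CPM in WT and 170, 173, 107 and 229 CPM in *Pdgfra-Cre:LmnaF/F* libraries. Replicates 1, 2 and 3 of the *Pdgfra-Cre:LmnaF/F* group lay below every WT library, and replicate 4 lay within the WT range. Its log2 fold change was -0.59 (SE 0.24, 95% interval -1.10 to -0.09, edgeR adjusted p = 0.336), and the adjusted p lay between 0.171 and 0.641 over the alternatives. Without *Pdgfra-Cre:LmnaF/F* replicate 3 the log2 fold change was -0.42. The gene *Zbtb22* lies on the same strand and overlaps *Tapbp* by 3422 bases. It was 45.3 to 92.1 CPM, with a log2 fold change of -0.04.

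*Nlrc5* (chr8:94434356-94527272) encodes the class I transactivator. Its counts were 43, 17, 10 and 25 in WT and 38, 25, 43 and 74 in *Pdgfra-Cre:LmnaF/F* libraries, that is 4.02, 8.55, 1.60 and 2.59 CPM and 3.93, 2.61, 4.95 and 6.17 CPM. The WT libraries held both the lowest and the highest value. The log2 fold change was 0.11 (SE 0.85, edgeR adjusted p = 0.977), with a 95% interval from -1.69 to 1.92, the widest of the 8 genes.

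**Figure D1:**
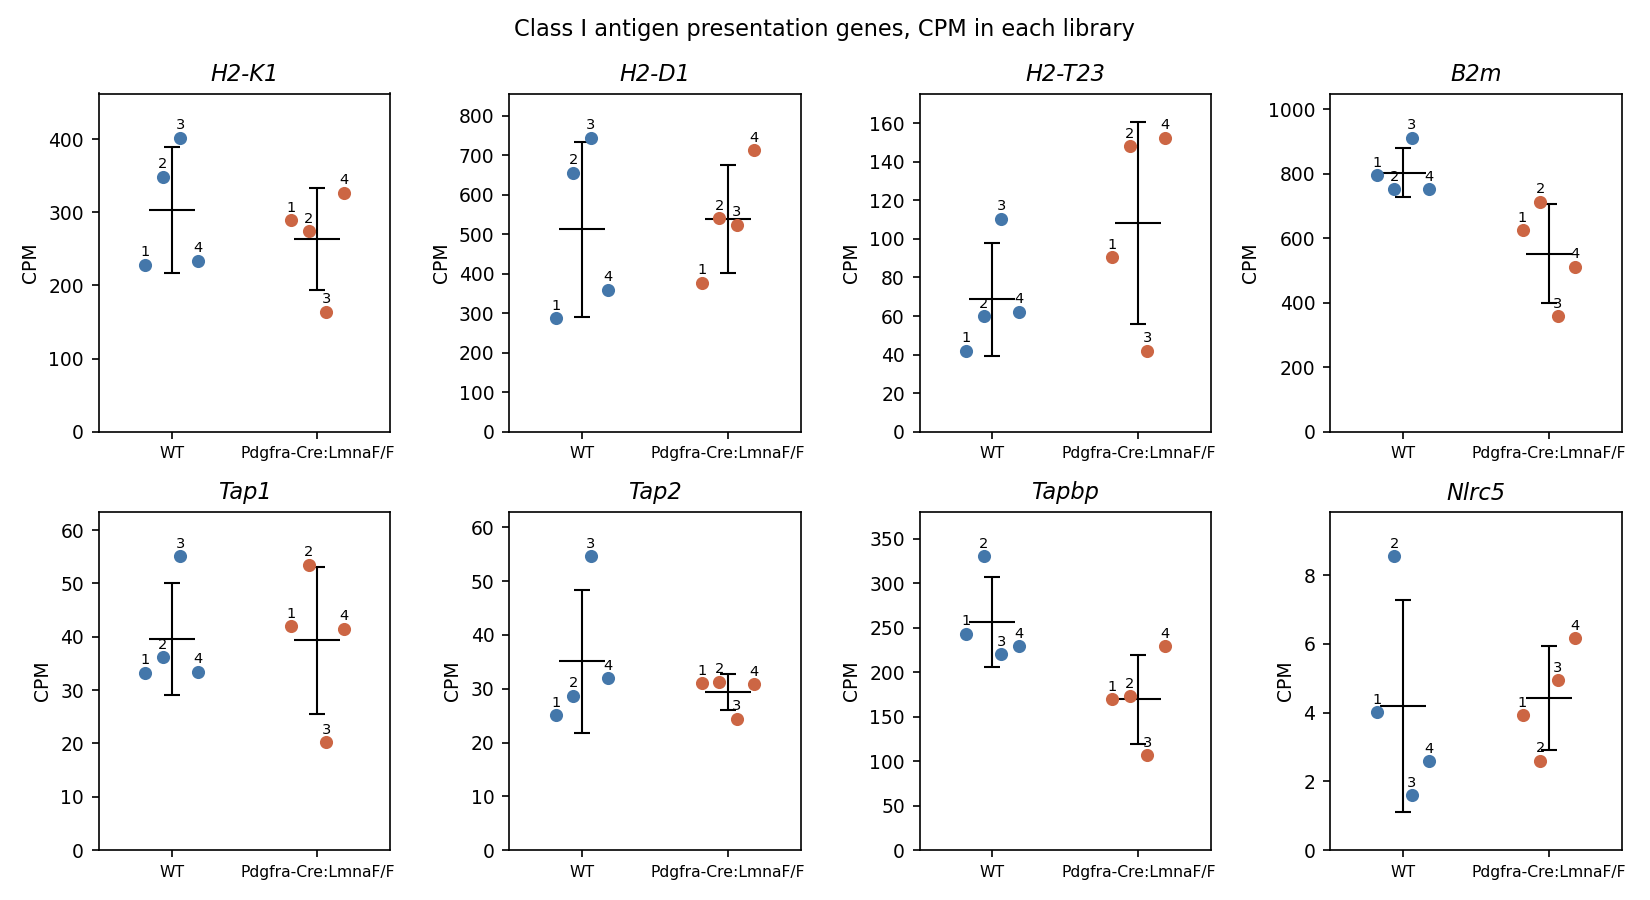
CPM of the 8 class I antigen presentation genes in each of 4 WT (blue) and 4 Pdgfra-Cre:LmnaF/F (orange) libraries, with replicate numbers beside the points and the mean ± SD as bars. For B2m the Pdgfra-Cre:LmnaF/F libraries (358 to 713 CPM) lie below the WT libraries (752 to 911 CPM), and for the other 7 genes the groups overlap.

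Levels were set side by side between genes per kb of exon, with the exons of all annotated transcripts of a gene merged. In WT libraries *B2m* stood at 934 ± 87.3 CPM per kb (SD, n = 4) and ranked 18 among 13006 tested genes with an exon length. It was followed by *H2-D1* (198 ± 86.1), *H2-K1* (103 ± 29.3), *Tapbp* (70.6 ± 13.9), *H2-T23* (23.8 ± 10.2), *Tap2* (9.29 ± 3.52), *Tap1* (7.22 ± 1.92) and *Nlrc5* (0.493 ± 0.362). The ranges of the neighbours *H2-D1* and *H2-K1*, *H2-K1* and *Tapbp*, and *Tap2* and *Tap1* overlapped between the 4 WT libraries, although the order of each pair was the same within every WT library. *H2-D1* was above *H2-K1* in all 8 libraries, by a ratio of 1.44 to 2.14 in WT and 1.49 to 3.63 in *Pdgfra-Cre:LmnaF/F* libraries. In the *Pdgfra-Cre:LmnaF/F* group the order of the means was the same, from *B2m* at 641 ± 178 CPM per kb to *Nlrc5* at 0.520 ± 0.178, with *H2-K1* at 89.7 ± 23.8, *Tapbp* at 46.7 ± 13.8 and *H2-T23* at 37.5 ± 18.2. It did not hold within replicate 2 of that group. There *H2-T23* (51.3) lay above *Tapbp* (47.6), and *Tap1* (9.77) above *Tap2* (8.27).

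**Figure D2:**
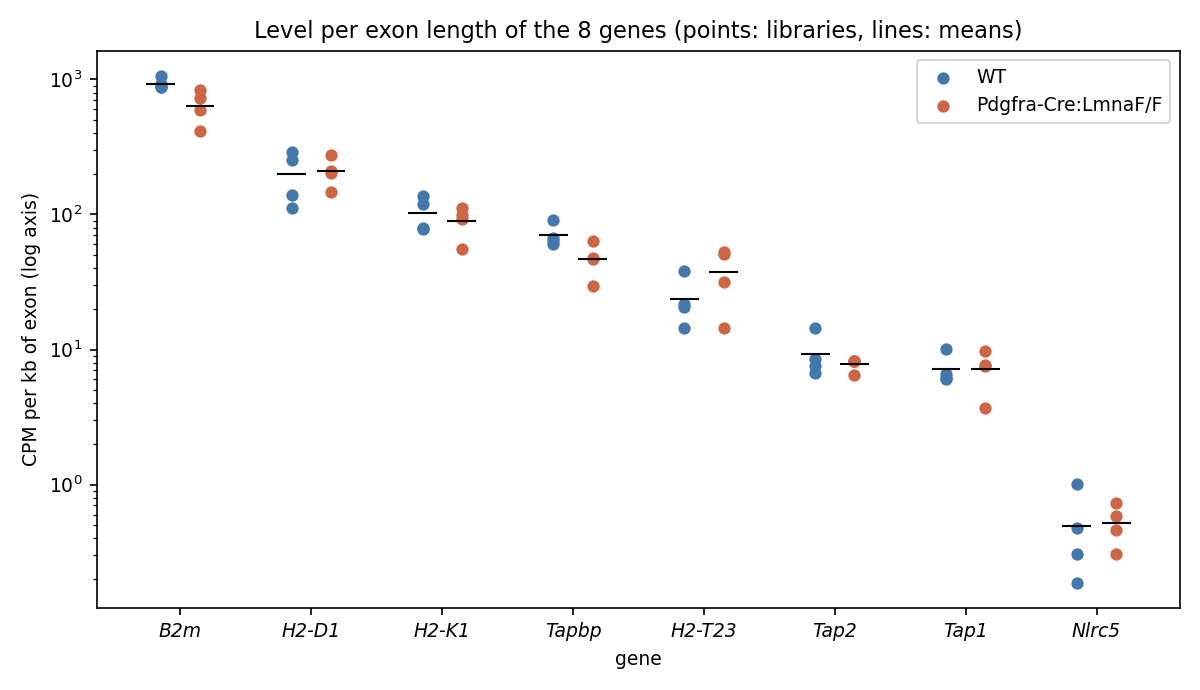
Level of the 8 genes in CPM per kb of exon (vertical log axis) in 4 WT (blue) and 4 Pdgfra-Cre:LmnaF/F (orange) libraries; points are libraries and black lines are group means. The WT means run from 934 for B2m to 0.493 for Nlrc5.

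A few libraries held the extreme values of several genes at once. *Pdgfra-Cre:LmnaF/F* replicate 3 held the lowest of the 8 values for 6 genes, all but *H2-D1* and *Nlrc5*, and WT replicate 3 held the highest for 5 genes, *H2-K1*, *H2-D1*, *B2m*, *Tap1* and *Tap2*. On the log2 scale and relative to the WT mean, *Pdgfra-Cre:LmnaF/F* replicate 3 lay at -1.16 for *B2m*, -1.24 for *Tapbp*, -0.92 for *Tap1* and -0.84 for *H2-K1*, but at 0.15 for *H2-D1*. *Pdgfra-Cre:LmnaF/F* replicate 4, in contrast, lay at 1.24 for *H2-T23* and 0.59 for *H2-D1*, with *B2m* at -0.65. In that library the leukocyte and cardiac myocyte markers were at their highest, and their part in these values was not tested.

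**Figure D3:**
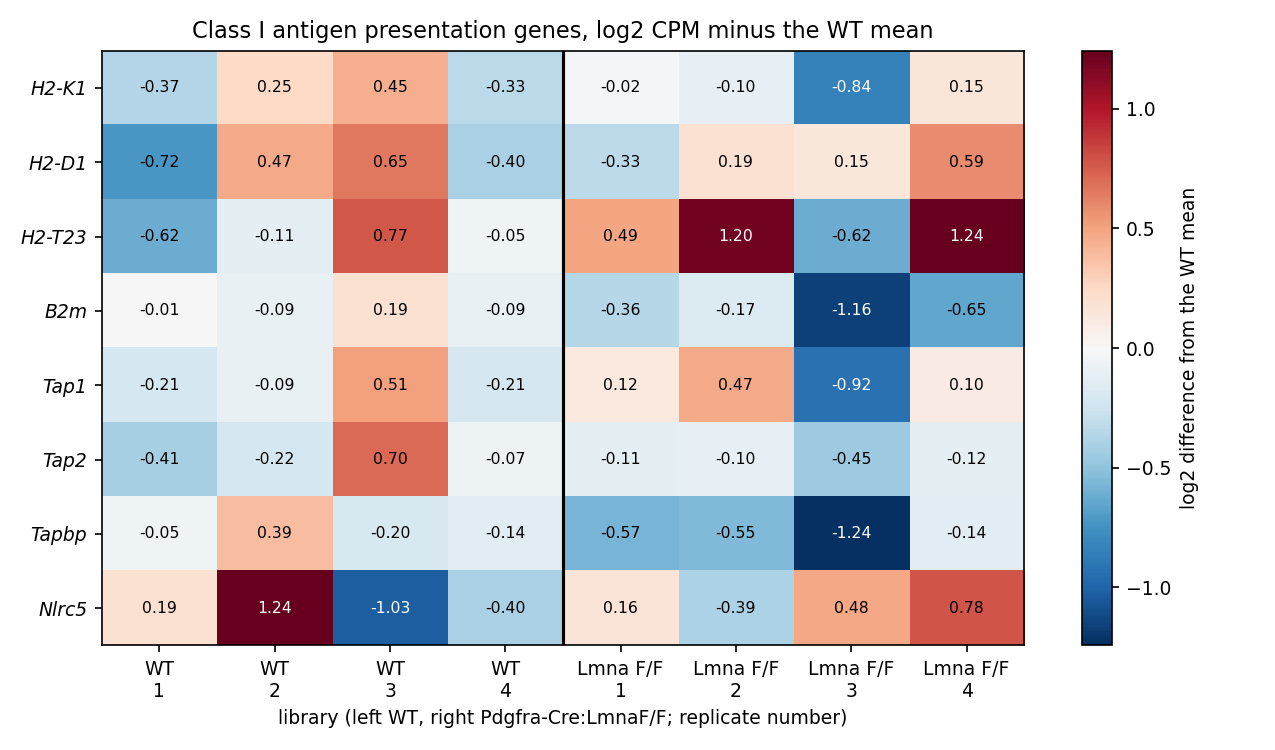
Log2 CPM of the 8 genes in each library minus the mean over the WT libraries (red above, blue below; numbers give the difference). Pdgfra-Cre:LmnaF/F replicate 3 is blue for 6 genes, down to -1.24 for Tapbp, whereas replicates 2 and 4 are red for H2-T23 (1.20 and 1.24).

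The genes outside the 8 whose log2 CPM followed the mean z-score of the 8 genes most closely over the 8 libraries were *C1ra* (Pearson r = 0.982), *Gltpd2* (0.973), *Vdac1* (0.969), *Ifi204* (0.958) and *Doc2a* (0.944). *C1ra* encodes a protease of the classical complement pathway, *Vdac1* a channel of the outer mitochondrial membrane and *Ifi204* an interferon-inducible protein. These 5 were picked as the highest of all tested genes over the same libraries, which also differ in depth, and the values are a description. *Gltpd2* and *Doc2a* were low, with means of 1.78 and 1.41 CPM.

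Among the partners that make and load peptides, 14 genes were listed and tested. None (0 of 14) passed the edgeR test at an adjusted p under 0.05 (0.407% of all tested genes), and 4 had an unadjusted p under 0.05 with a lower level in *Pdgfra-Cre:LmnaF/F* libraries (5.65% of all). Fold changes were below 0 for 12 of 14 (48.2% of all), with a median of -0.23. The 4 were *Pdia3*, *Calr*, *Ganab* and *Psmb9*. *Pdia3*, the disulfide isomerase bound to tapasin, was 322, 394, 410 and 311 CPM in WT and 248, 342, 207 and 184 CPM in *Pdgfra-Cre:LmnaF/F* libraries, a log2 fold change of -0.55 (SE 0.22, edgeR adjusted p = 0.341). *Calr*, the chaperone calreticulin, had a log2 fold change of -0.60 (SE 0.25, edgeR adjusted p = 0.364), and *Ganab*, a glucosidase that trims the glycans which calreticulin reads, one of -0.52 (SE 0.24, edgeR adjusted p = 0.411). In all 3 the groups overlapped, and their lowest values came from *Pdgfra-Cre:LmnaF/F* replicates 3 and 4.

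The immunoproteasome subunits cut proteins into peptides suited to class I. *Psmb9* was 2.90, 14.1, 20.9 and 9.42 CPM in WT and 3.93, 1.25, 2.07 and 6.25 CPM in *Pdgfra-Cre:LmnaF/F* libraries, a log2 fold change of -1.79 (SE 0.72, edgeR adjusted p = 0.343). WT replicate 1 lay within the *Pdgfra-Cre:LmnaF/F* range. *Psmb8* and *Psmb10* had log2 fold changes of -0.08 (SE 0.44) and -0.19 (SE 0.34), with edgeR adjusted p values of 0.966 and 0.888. *Psmb9* overlaps *Tap1* by 212 bases on the opposite strand.

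Other class I and class I-like genes numbered 23, of which 17 were in the count data and 8 passed the filter. None (0 of 8) was called by edgeR (0.407% of all tested genes), 3 had an unadjusted p under 0.05, all higher in *Pdgfra-Cre:LmnaF/F* libraries (6.24% of all), and the median log2 fold change was 0.32. *H2-Q4*, a Qa-region heavy chain, was 14.2, 15.1, 14.1 and 9.84 CPM in WT and 29.3, 28.6, 11.6 and 26.8 CPM in *Pdgfra-Cre:LmnaF/F* libraries, with a log2 fold change of 0.86 (SE 0.37, edgeR adjusted p = 0.370). Like *H2-T23*, it was high in *Pdgfra-Cre:LmnaF/F* replicates 2 and 4 and low in replicate 3. *Cd1d1*, which presents lipids to natural killer T cells, was 3.27, 3.52, 0.959 and 1.24 CPM in WT and 4.65, 4.07, 14.5 and 8.17 CPM in *Pdgfra-Cre:LmnaF/F* libraries, without overlap (log2 fold change 1.83, SE 0.81, edgeR adjusted p = 0.392); 4.06% of all tested genes were higher without overlap. *Hfe*, a class I-like regulator of iron uptake, had a log2 fold change of 0.62 (SE 0.27, edgeR adjusted p = 0.373).

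**Figure D4:**
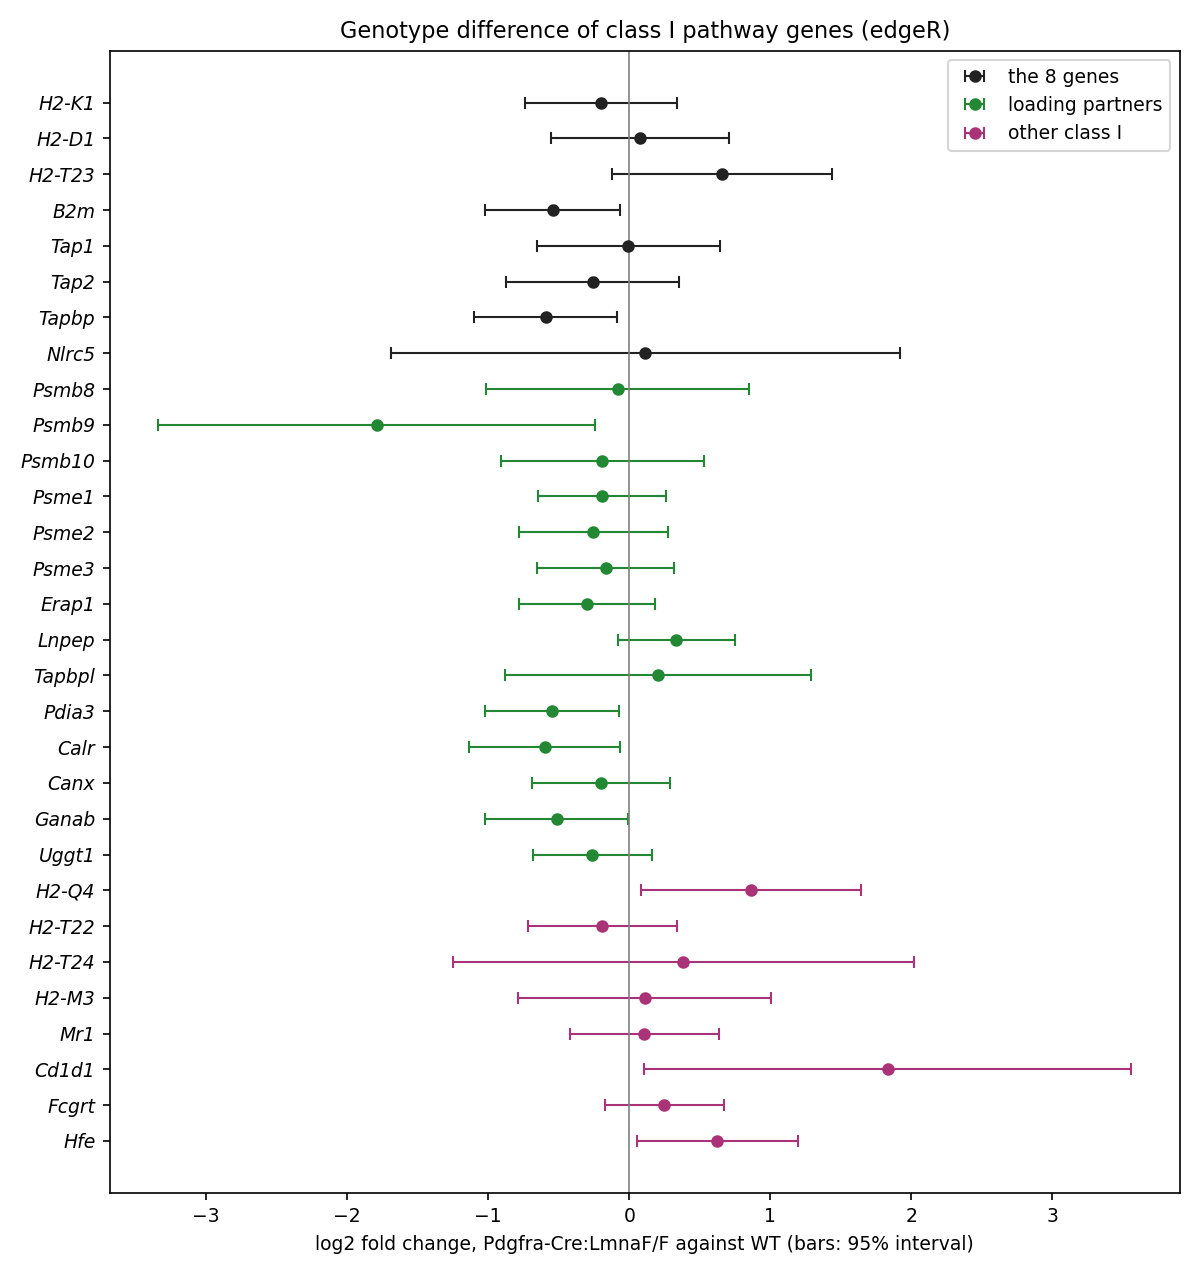
Log2 fold change, Pdgfra-Cre:LmnaF/F against WT, from the edgeR fit over all genes, with 95% intervals, for the 8 genes (black), the 14 loading partners (green) and 8 other class I genes (purple). The intervals of B2m, Tapbp, Pdia3, Calr, Ganab and Psmb9 lie below 0 and those of H2-Q4, Hfe and Cd1d1 above 0, and none of the genes shown passed the adjusted test.

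The factors that act on class I promoters, with the type I and type II interferon receptors and signalling proteins, were a list of 24 genes, all tested. Of these 0 were called by edgeR (0.407% of all tested genes) and 4 had an unadjusted p under 0.05 (11.9% of all), 3 higher and 1 lower. The median log2 fold change was 0.04. *Jak2*, a kinase of the interferon-gamma receptor and of many cytokine receptors, was 47.4, 47.3, 54.2 and 56.2 CPM in WT and 77.8, 96.0, 80.6 and 69.2 CPM in *Pdgfra-Cre:LmnaF/F* libraries (log2 fold change 0.66, SE 0.20, edgeR adjusted p = 0.194). *Stat3* was, like *Jak2*, higher without overlap (4.06% of all tested genes), at 193 to 276 against 284 to 379 CPM (log2 fold change 0.45, SE 0.19, edgeR adjusted p = 0.370). *Creb1*, of the family that binds the TGACG box, had a log2 fold change of 0.50 (SE 0.22, edgeR adjusted p = 0.391).

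Of the 24 genes, 11 had fold changes below 0, and in 2 of these, *Rfx5* and *Nfkb1*, every *Pdgfra-Cre:LmnaF/F* library lay below every WT library, as in 3.97% of all tested genes. Neither was called. *Rfx5*, the DNA-binding subunit of the regulatory factor X complex, was 19.7, 19.6, 22.7 and 20.2 CPM in WT and 18.5, 11.6, 8.98 and 2.75 CPM in *Pdgfra-Cre:LmnaF/F* libraries, with a log2 fold change of -0.98 (SE 0.48, edgeR adjusted p = 0.448). *Nfkb1*, a subunit of NF-kappa B, was 155 to 187 CPM in WT and 95.7 to 154 CPM in *Pdgfra-Cre:LmnaF/F* libraries (log2 fold change -0.44, SE 0.19, edgeR adjusted p = 0.393). *Irf1*, a transcription factor induced by interferon-gamma, had a log2 fold change of 0.43 (SE 0.26, edgeR adjusted p = 0.568).

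The interferon-gamma response can be read from genes that it induces alongside class I, a list of 18 genes of which 13 were tested. Here 0 were called by edgeR (0.407% of all tested genes), 0 had an unadjusted p under 0.05 (11.9% of all), and 3 fold changes were above and 10 below 0, with a median of -0.28. *Gbp2*, a guanylate-binding protein, was 41.3, 46.3, 156 and 43.9 CPM in WT and 49.7, 49.9, 22.3 and 41.1 CPM in *Pdgfra-Cre:LmnaF/F* libraries. WT replicate 3 was the highest and *Pdgfra-Cre:LmnaF/F* replicate 3 the lowest library, which was also so for *Tap1* and *Tap2*. Its log2 fold change of -0.82 (SE 0.41, edgeR adjusted p = 0.457) became -0.11 without WT replicate 3, and that of *Gbp9*, -1.21 (SE 0.71, edgeR adjusted p = 0.551), became -0.19.

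MHC class II genes mark professional antigen-presenting cells, which the lineage-negative gate was meant to remove. They were listed with *Ciita* and with *Cd80*, *Cd83*, *Cd86* and *Itgax*, other markers of these cells. Of these 15 genes, 10 were tested and 0 called by edgeR (0.407% of all tested genes), 2 had an unadjusted p under 0.05, both lower in *Pdgfra-Cre:LmnaF/F* libraries (5.65% of all), and the median log2 fold change was -0.75. The 15 genes summed to 84.4 to 234 CPM in WT and 64.8 to 130 CPM in *Pdgfra-Cre:LmnaF/F* libraries, of which *Cd83* gave 14.6 to 112 and 13.1 to 37.1 CPM. *Cd74*, the invariant chain, was 47.6, 45.8, 53.8 and 7.46 CPM in WT and 14.3, 30.0, 9.44 and 14.4 CPM in *Pdgfra-Cre:LmnaF/F* libraries (log2 fold change -1.18, SE 0.50, edgeR adjusted p = 0.372), and its log2 fold change was -0.26 with limma-voom (adjusted p = 0.906). *Cd83*, a surface protein of activated antigen-presenting cells, had a log2 fold change of -1.38 (SE 0.47, edgeR adjusted p = 0.239). The class II chains *H2-Aa*, *H2-Ab1* and *H2-Eb1* and the class II transactivator *Ciita* had log2 fold changes of -0.89, -0.99, -0.89 and -0.51, each with an edgeR adjusted p above 0.5. Single libraries moved these values: *H2-Aa* was at -0.10 without WT replicate 1, and without *Pdgfra-Cre:LmnaF/F* replicate 2 *H2-Ab1* was at -2.60 and *H2-Eb1* at -2.45. The leukocyte marker *Ptprc* was 3.02 to 7.99 CPM in WT and 0 to 12.9 CPM in *Pdgfra-Cre:LmnaF/F* libraries (log2 fold change -0.05), and *Itgam* was at 0 in 6 of 8 libraries. Of the 10 leukocyte markers 5 were tested and 0 were called by edgeR (0.407% of all tested genes). An unadjusted p under 0.05 was found for 1 of them, with a higher level (6.24% of all). The fold changes of 4 were above 0 and that of 1 below 0 (48.2% of all), with a median of 0.50 on the log2 scale. *Csf1r*, a macrophage growth factor receptor, was 3.52 to 12.7 CPM in WT and 8.999 to 44.7 CPM in *Pdgfra-Cre:LmnaF/F* libraries (log2 fold change 1.57, SE 0.51, edgeR adjusted p = 0.213), and *Cd68* had a log2 fold change of 1.40 (SE 0.96, edgeR adjusted p = 0.625). The part of such cells in the class I values was not tested.

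Genes that tissue dissociation can induce were also read, although other stimuli can induce them too. Of 18 such genes, 2 were called by edgeR (0.407% of all tested genes were called, and 0.169% as higher), *Ier3* (log2 fold change 1.88, SE 0.31, adjusted p = 0.0221) and *Btg2* (2.08, SE 0.37, adjusted p = 0.0315), both higher in *Pdgfra-Cre:LmnaF/F* libraries. Neither was called without WT replicate 1, WT replicate 4 or *Pdgfra-Cre:LmnaF/F* replicate 3, nor *Btg2* without *Pdgfra-Cre:LmnaF/F* replicate 2, with edgeR adjusted p values of 0.0554 to 0.108. Of the 18 genes, 14 had an unadjusted p under 0.05, all higher, as had 6.24% of all tested genes. Together the 18 summed to 2426 to 5672 CPM in WT and 7815 to 12174 CPM in *Pdgfra-Cre:LmnaF/F* libraries, without overlap. The highest sum was in *Pdgfra-Cre:LmnaF/F* replicate 3, the library with the lowest values of 6 of the 8 class I genes. Whether dissociation or the genotype raised these 18 genes was not tested. Their link to the values of *B2m*, *Tapbp* and the other class I genes was not tested either.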

How the data were processed

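RNA of sorted PDGFRA+ ventricular cells was compared between 4 WT and 4 *Pdgfra-Cre:LmnaF/F* libraries, grouped by the genotype in their labels. The authors built strand-specific libraries after depletion of ribosomal RNA from RNA with an integrity number above 8, sequenced 150 bp paired-end reads, and aligned them to mm10 with HISAT2. Each deposited file holds raw featureCounts counts for gene symbols, which the authors did not scale for depth. The strand option and the GENCODE release were not given in the sources used here, so that reads of overlapping genes may not be separated. The RUV normalization named in the methods is not part of the counts.

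The genotypes were compared with edgeR 4.0.16 under R 4.3.3 (TMM factors, filterByExpr, quasi-likelihood test with genotype as the only term, Benjamini-Hochberg adjustment over 13036 genes, threshold 0.05). Standard errors were obtained from the F statistic. CPM used TMM-scaled library sizes, and log2 CPM a prior count of 2. Exon lengths, positions and transcripts came from GENCODE M21 (GRCm38), which matched 18918 symbols. Total counts were 2080555 to 12502949 per library, and standard errors include the spread between libraries. The fits were tested on simulated counts with known fold changes.

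Alternatives were DESeq2 1.42.0, limma-voom (limma 3.58.1) with quality weights, scaling by RLE or by upper quartiles, omission of the filter or a minimum of 10 counts per library, 1 factor of unwanted variation (RUVr) in edgeR or DESeq2, replicate number as a block, and omission of single libraries. Tables, sequences and figures were made in Python 3.11.15 with pandas 2.3.3 and matplotlib 3.10.9.

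Named genes were the 8 genes, *Lmna*, all called genes and the 3 lowest p of each list other than the cell type markers, the immunoproteasome, *Irf1*, *Rfx5*, class II chains, *Cd74*, *Ciita*, *Ptprc*, *Pecam1*, and the 5 genes most alike in profile. *Ganab*, *Nfkb1*, *Itgam*, *Csf1r*, *Cd68*, *H2-M3*, *Cdh5*, *Nfe2l1*, *Per1*, *Patl2* and *Zbtb22* were added after their values were seen. A gene and a promoter sequence that fell under these rules are not reported here. The genes and lists were chosen with earlier results of these data known. The marker lists not described above gave summed levels of 198 to 309 CPM in WT and 129 to 276 CPM in *Pdgfra-Cre:LmnaF/F* libraries for endothelial cells, 151 to 304 and 138 to 330 CPM for mural cells, 8.47 to 37.2 and 6.67 to 14.3 CPM for mesothelial cells, 3.52 to 7.01 and 1.25 to 7.71 CPM for Schwann cells, and 31.6 to 365 and 16.8 to 666 CPM for erythroid cells.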

Additional observations from a re-analysis of the deposited data

Results flagged for a closer look

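Within the genotypes, 82 groups of 4 libraries were screened for a library whose gap to its neighbour exceeded the 95% critical value of Dixon for the group's range, and 10 were found, where chance gives about 1 in 20. In WT replicate 3, *Tap1* (55.1 CPM), *Gbp2* (156 CPM) and *Psmb8* (35.0 CPM) lay far above the other WT libraries. In *Pdgfra-Cre:LmnaF/F* replicate 3, *Tap2* (24.4 CPM) and *H2-Q4* (11.6 CPM) lay far below the other libraries of the group, and *Ier3* (86.2 CPM) far above them. In *Pdgfra-Cre:LmnaF/F* replicate 2 the class II genes *H2-Ab1* (14.9 CPM), *H2-Eb1* (18.7 CPM) and *Ciita* (6.99 CPM) stood apart as high values. *Socs3*, a feedback inhibitor of cytokine signalling, was high in *Pdgfra-Cre:LmnaF/F* replicate 4 (343 CPM).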

How the results depend on the processing

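None of the 8 genes was called under any of the 17 alternatives, and of 136 fold changes recomputed for them 123 kept their direction. *H2-K1*, *H2-T23*, *B2m* and *Tapbp* kept theirs throughout. The log2 fold change of *Tap1* turned to 0.11 with limma-voom and to 0.0073 with at least 10 counts in every library, 0.0119 with 1 RUVr factor and 0.0115 with that factor in DESeq2. *Psmb8* turned to 0.30 with limma-voom, 0.0767 and 0.0759 with 1 RUVr factor in edgeR and DESeq2, and 0.0191 with the replicate block. With limma-voom *Ciita* turned to 0.0848, *Vdac1* to 0.0155, *Ifi204* to 0.10 and *Doc2a* to 0.59, the last also with the replicate block (0.57). When single libraries were left out, the log2 fold change ranged from -0.12 to 0.31 for *H2-D1*, -0.19 to 0.21 for *Tap1*, -0.39 to 0.0347 for *Tap2*, -0.16 to 0.68 for *Nlrc5*, -0.32 to 0.44 for *Psmb8*, -0.44 to 0.0581 for *Psmb10*, -1.24 to 0.36 for *Ptprc*, -0.0824 to 0.0508 for *Vdac1*, -1.002 to 0.40 for *Ifi204* and -1.28 to 0.60 for *Doc2a*. The count over all genes moved from 53 to 310 with DESeq2, 126 with limma-voom, 274 without a filter and 472 with DESeq2 and 1 RUVr factor, and lay between 13 and 76 when single libraries were left out (24 without WT replicate 1 or 2, 13 without WT replicate 4, and 26 and 17 without *Pdgfra-Cre:LmnaF/F* replicates 2 and 3). Without a filter 1 gene of the class II and professional antigen presentation list, *Cd83*, was called (log2 fold change -1.40, adjusted p = 0.0215). The causes of these shifts were not tested. With the replicate block 36 genes were called. The correlations of same-numbered libraries were -0.03, -0.03, -0.00 and 0.04, against -0.03 to 0.04 for libraries of different numbers. Such values show no shared deviation by number and cannot tell whether the mice were paired. *Socs3* was called under 8 of the 17 alternatives, with adjusted p values from 1.21e-06 to 0.183 over all of them.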

Other observations

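The spaced motif TGACG, 20 bases, ATTGG lay in the promoters of 25 genes, of which 18 were tested. Of these, 0 were called by edgeR (0.407% of all tested genes), 10 fold changes were above and 8 below 0 (48.2% of all were below 0), and the median log2 fold change was 0.05. An unadjusted p under 0.05 was found for 2 of the 18, a share near that of all tested genes (11.9%). *Nfe2l1*, a transcription factor of proteasome genes, had a log2 fold change of -0.54 (SE 0.22, edgeR adjusted p = 0.364), and *Per1*, a clock gene, one of 0.96 (SE 0.44, edgeR adjusted p = 0.404). *H2-M3* had a log2 fold change of 0.11 (SE 0.42, edgeR adjusted p = 0.957). Of 7 endothelial markers, all tested, 0 were called by edgeR (0.407% of all tested genes), 1 had an unadjusted p under 0.05 with a lower level in *Pdgfra-Cre:LmnaF/F* libraries (5.65% of all), and 6 fold changes were below 0, with a median of -0.28. *Cdh5*, an endothelial cadherin, was 62.8, 40.8, 45.7 and 42.0 CPM in WT and 16.6, 8.13, 22.1 and 38.3 CPM in *Pdgfra-Cre:LmnaF/F* libraries, without overlap (log2 fold change -1.17, SE 0.38, edgeR adjusted p = 0.215). Of all tested genes, 3.97% were lower without overlap. The part of endothelial cells in the values of *B2m* was not tested. *Pecam1* was 49.8 to 68.2 CPM in WT and 17.5 to 53.1 CPM in *Pdgfra-Cre:LmnaF/F* libraries (log2 fold change -0.56, SE 0.31, edgeR adjusted p = 0.519). *Igtp*, an interferon-inducible GTPase, had a log2 fold change of -0.72 (SE 0.50, edgeR adjusted p = 0.626), and *Socs3* one of 1.48 (SE 0.31, edgeR adjusted p = 0.0627).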
